A study of Mus musculus with 24 samples.

Results

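The buccal part of the dental mesenchyme was followed in vivo from the cap to the bell stage of tooth development. The comparison rests on 6 of the 24 libraries of the study, 3 labelled Cap-B and 3 labelled Bell-B, which were chosen by their labels, and on all genes of the deposited table. First mandibular molar germs of ICR mouse embryos were taken at E13 for the cap stage and at E15 for the bell stage. Each germ was divided with a fine needle into a lingual and a buccal piece, and the mesenchyme of each piece was freed from the epithelium with dispase II before RNA was extracted. The sources name no genetic change and no agent for either group, which are labelled as differing by stage alone. The study's methods name embryos from several litters and give conflicting numbers of replicates, without tying a library to an embryo or a litter, so that p-values measure the spread between these libraries, which may be technical.

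In the mammalian tooth germ the epithelium and the neural crest-derived mesenchyme exchange Shh, Bmp, Fgf and Wnt signals. At the cap stage the epithelial enamel knot is the main source of Shh, while the mesenchyme condenses into the dental papilla and the surrounding follicle. By the bell stage the papilla is shaped into cusps, and the tissue outside the germ on its way to alveolar bone, periodontal ligament, jaw muscle and oral mucosa lies close to it.

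Read pairs counted on genes came to 21663852, 23200193 and 25103228 in the Cap-B libraries and 29921054, 27647094 and 29657991 in the Bell-B libraries. A floor of 3 counts, which covers counting error only, lay between 0.1003 and 0.138 per 1000000 of a library's total counts. Levels below are counts per 1000000 counts on the tested genes after TMM scaling (CPM), and a fold change is the log2 ratio of bell over cap with its standard error over 3 libraries per stage. The libraries of 1 stage were very close to each other. Pairs of Cap-B libraries differed by 1.32 to 1.49 times the variance of counting alone (chi-square per degree of freedom over genes), pairs of Bell-B libraries by 2.00 to 3.61 times, and pairs of undivided mesenchyme by 7.89 to 161 times. The coefficient of variation between libraries fitted by edgeR was 2.53% for the buccal part, 4.61% for the lingual part and 25.01% for the undivided mesenchyme. The share of mitochondrial genes was 2.90% to 3.01% at cap and 3.24% to 3.61% at bell, and the bearing of this difference on the results was not tested.

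Of 20926 genes tested with edgeR's quasi-likelihood test, 2523 were higher at the bell stage and 1424 were higher at the cap stage. A call required an adjusted p under 0.05 together with a log2 fold change of more than 0.5 in either direction. These calls were 12.1% and 6.80% of the genes tested. The 3 libraries of one stage lay entirely above those of the other for 11907 genes (56.9%), and the median fold change over all genes was 0.005 on the log2 scale. Lack of overlap was thus the state of most genes. A set of 3048 calls was made in every fit that left out 1 of the 6 libraries. When the spread of each gene was taken from the undivided mesenchyme instead, an alternative chosen after seeing the data, 947 genes were higher at bell (4.71% of 20090 tested) and 382 at cap (1.90%), and all 1329 were among the calls above. Counts of list members for the stage difference under this wider spread are given below beside the main ones. Each such count is to be read against these shares of all genes. The lists were chosen with earlier results of these data known, so a share above that of all genes is no test. A two-sided exact permutation test of a single gene cannot give a p below 0.1 with these 6 libraries.

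**Figure D1:**
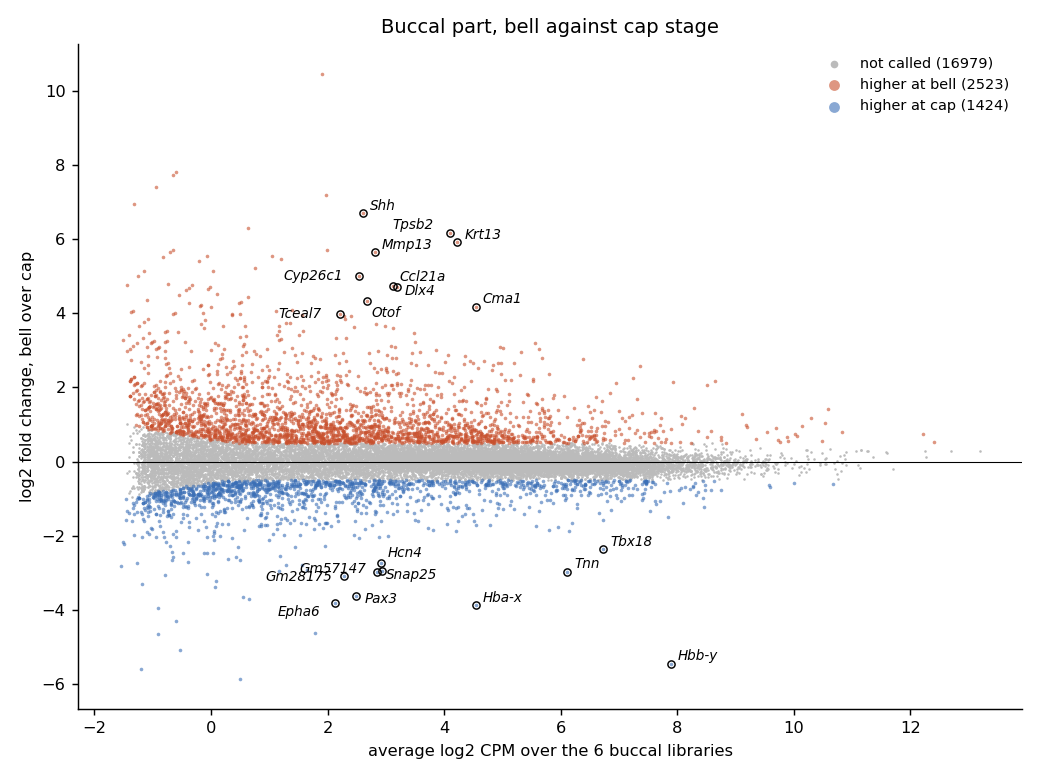
Each point is 1 of the 20926 genes tested in the buccal part, with its average level on the x axis (log2 CPM over 6 libraries) and its log2 fold change, bell over cap, on the y axis; orange points are the 2523 genes called higher at bell and blue points the 1424 called higher at cap. Circled and named are the 10 largest fold changes of each direction, from Shh at 6.70 to Hbb-y at -5.46. They were taken from called genes without overlap between stages and at an average log2 CPM of at least 2.

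Among called genes without overlap between the stages, the 10 largest rises at an average log2 CPM of at least 2 were the following. Shh, the hedgehog ligand, had 1, 2 and 4 counts at the cap stage and 337, 284 and 324 counts at the bell stage. On the CPM scale this was a ratio of 109 (95% interval 52.5 to 271). The cap libraries were thus at or near the floor, and 15.7% of the exon length of Shh is shared with another gene on either strand. Krt13, a keratin of oral mucosa, was at 0.416, 0.603 and 0.638 CPM at the cap stage and 34.0, 33.1 and 34.4 CPM at the bell stage. Mmp13, a collagenase of bone and cartilage remodelling, was at 0.416, 0.172 and 0.159 CPM at the cap stage and 12.0, 13.4 and 11.9 CPM at the bell stage. The log2 fold changes were 5.91 ± 0.11 for Krt13 and 5.65 ± 0.19 for Mmp13. Separate stages were a condition of being named here. Cyp26c1, which breaks down retinoic acid, changed by 5.00 ± 0.18, and the distal-less homeobox gene Dlx4 by 4.70 ± 0.14. Ccl21a, a lymphatic chemokine with near-identical copies in the mouse genome and therefore uncertain, changed by 4.72 ± 0.15. The remaining genes of this group were the mast cell proteases Tpsb2 and Cma1, the ferlin gene Otof (4.33 ± 0.15) and Tceal7 (3.97 ± 0.17).

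The largest falls under the same limits included those of embryonic globins, which are described further below. Tbx18, a T-box factor of early mesenchyme, was at 179, 185 and 184 CPM at the cap stage and 35.4, 35.3 and 35.4 CPM at the bell stage, which is 5.17 times lower at the bell stage (log2 fold change -2.37 ± 0.034, adjusted p = 3.7e-37, edgeR). Tnn, an extracellular matrix glycoprotein, was at 128, 126 and 129 CPM at the cap stage and 16.4, 15.0 and 17.2 CPM at the bell stage. Pax3, a paired box factor of neural crest and muscle precursors, was at 11.6, 11.2 and 10.8 CPM at the cap stage and 0.702, 0.980 and 1.05 CPM at the bell stage. Separate stages were again a condition of being named. The ephrin receptor Epha6 (-3.81 ± 0.17), the synaptic gene Snap25 (-2.98 ± 0.11), the pacemaker channel gene Hcn4 (-2.73 ± 0.11) and the unnamed transcripts Gm28175 (-3.07 ± 0.14) and Gm57147 (-2.96 ± 0.12) completed this group. Gm57147 was not called with the spread of the undivided mesenchyme, and 20.6% of the exon length of Tbx18 is shared with another gene.

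Hedgehog signalling runs from Shh through the receptor Ptch1 to the Gli factors, and Ptch1, Hhip and Gli1 are themselves known targets of the pathway. These 3 targets were higher at the bell stage. Ptch1 was at 142, 142 and 136 CPM at the cap stage and 579, 579.8 and 582 CPM at the bell stage, a log2 fold change of 2.05 ± 0.030, adjusted p = 4.2e-37 (edgeR). Hhip, a membrane protein that binds the ligand, was at 14.5, 15.0 and 14.7 CPM at the cap stage and 51.6, 53.5 and 50.4 CPM at the bell stage. The transcription factor Gli1 was at 143, 132 and 142 CPM at the cap stage and 274, 263 and 282 CPM at the bell stage. In none of these 3 genes did a bell library overlap a cap library, as held for 56.9% of all genes.

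Scube3, a secreted protein of the family that helps release the ligand, rose from 29.3 ± 2.21 CPM to 100.3 ± 4.14 CPM (SD, n = 3 each), while its relative Scube1 fell by 0.62 on the log2 scale and the co-receptor Boc fell by 0.60. Ihh, another hedgehog ligand, was low throughout, at 1.48, 0.775 and 0.957 CPM at the cap stage and 0.401, 0.690 and 0.508 CPM at the bell stage, and its call was lost with DESeq2. Of 18 pathway genes tested, 6 were higher at bell and 3 at cap, beside 12.1% and 6.80% of all genes, with a median fold change of -0.07. The signal transducer Smo (296 ± 7.59 CPM to 279 ± 7.02 CPM), Sufu, Gli2 and Gli3 were not called. Under the wider spread 6 of 17 tested were higher at bell and 2 at cap, beside 4.71% and 1.90% of all genes.

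**Figure D2:**
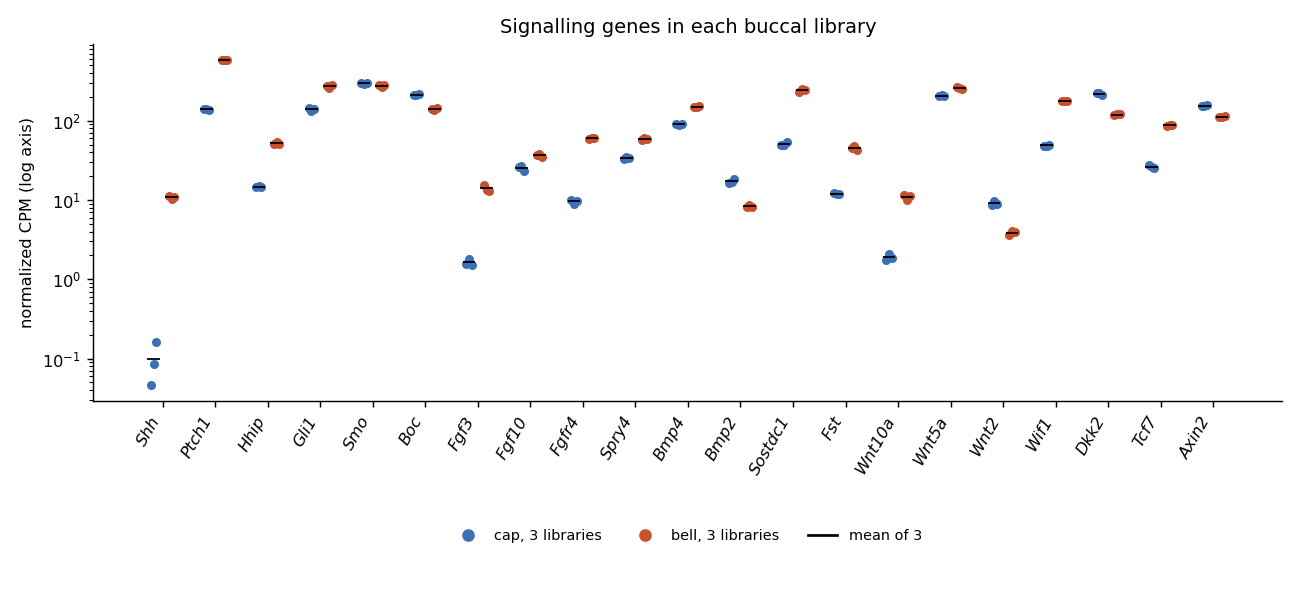
Levels of signalling genes in the 6 buccal libraries (CPM, log axis), 3 points per stage with their mean as a line, cap in blue beside bell in orange. Ptch1 sits between 136 and 142 CPM at cap and between 579 and 582 CPM at bell, and the 3 points of a stage nearly coincide for most genes.

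Fgf signals pass between the enamel knot and the papilla, and Etv4, Spry4 and Dusp6 are feedback or target genes of the receptor. Of 27 genes tested, 11 were higher at bell and 1 at cap, beside 12.1% and 6.80% of all genes. Under the wider spread these counts were 5 and 0 of 26 tested. Fgf3, a ligand of the dental papilla, was at 1.57, 1.81 and 1.51 CPM at the cap stage and 15.6, 13.4 and 13.1 CPM at the bell stage (log2 fold change 3.10 ± 0.12). Fgfr4, a receptor also known from muscle precursors, was at 10.1, 8.87 and 9.84 CPM at the cap stage and 58.4, 60.7 and 61.3 CPM at the bell stage. Both stood apart between the stages without overlap, as did 56.9% of all genes. Etv4 changed by 1.18 ± 0.049, Spry4 by 0.80 ± 0.042 and Dusp6 by 0.69 ± 0.033. Fgf18 was the member higher at cap, from 39.3 ± 1.29 CPM to 26.9 ± 1.12 CPM, and Fgfr1, Fgfr2, Etv1 and Etv5 were not called.

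Of 17 Bmp, Tgf-beta and activin ligands tested, 6 were higher at bell and 5 at cap, beside 12.1% and 6.80% of all genes. Their median was 0.39, and the counts under the wider spread were 4 and 3 of 15 tested. Bmp4, a key signal of dental mesenchyme, was at 92.2, 89.5 and 91.8 CPM at the cap stage and 150.1, 149 and 152 CPM at the bell stage (log2 fold change 0.72 ± 0.031). Bmp3, found in the dental follicle and in bone, was at 20.3, 21.1 and 16.9 CPM at the cap stage and 54.8, 61.8 and 61.1 CPM at the bell stage. Gdf10, a relative of Bmp3, changed by 1.36 ± 0.032. Bmp2 went the other way, at 16.6, 16.7 and 18.2 CPM at the cap stage and 8.12, 8.71 and 8.09 CPM at the bell stage (log2 fold change -1.05 ± 0.073), as did Gdf6 (-1.12 ± 0.096) and Tgfb2 (-0.59 ± 0.036). Among 20 antagonists and response genes of this family tested, 8 were higher at bell and 0 at cap, with a median of 0.36, and 4 and 0 under the wider spread. Sostdc1, which binds both Bmp and Wnt components, was at 49.2, 49.0 and 54.2 CPM at the cap stage and 229.6, 255 and 248 CPM at the bell stage. Fst, follistatin, was at 12.2, 12.0 and 12.0 CPM at the cap stage and 45.0, 48.2 and 42.9 CPM at the bell stage, and the log2 fold changes were 2.26 ± 0.039 and 1.91 ± 0.058. Nog (0.66 ± 0.12), Bambi (0.74 ± 0.057), Id1 (0.59 ± 0.054) and Id4 (0.77 ± 0.070) rose less, and Fstl3, with 47.3% of its exon length shared, was called in 3 of the 6 leave-one-out fits. Grem1, Chrd, Smad6 and Smad7 were not called.

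Among 20 Wnt ligands and R-spondins tested, 7 were higher at bell and 6 at cap, beside 12.1% and 6.80% of all genes. Under the wider spread these counts were 2 and 2. Wnt10a, a ligand whose loss causes missing teeth, was at 1.76, 2.11 and 1.87 CPM at the cap stage and 11.5, 10.1 and 11.2 CPM at the bell stage (log2 fold change 2.51 ± 0.12). Rspo4, an R-spondin that strengthens Wnt signalling, was at 1.48, 1.25 and 0.757 CPM at the cap stage and 7.49, 7.52 and 6.84 CPM at the bell stage. Neither gene had overlapping stages, as held for 56.9% of all genes. Wnt10b rose by 1.16 ± 0.096 and Wnt3a by 1.83 ± 0.19, whereas Wnt2 changed by -1.24 ± 0.10, Wnt3 by -1.03 ± 0.19 and Wnt7b by -0.82 ± 0.11. Wnt9b had 18, 36 and 32 counts at the cap stage and 2, 1 and 2 counts at the bell stage. On the CPM scale this was a bell over cap ratio of 0.0468 (95% interval 0.0148 to 0.113).

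The secreted Wnt inhibitors were more often higher at bell, 8 against 2 of 16 tested, with a median of 0.42, and 7 against 1 under the wider spread. Wif1 was at 48.2, 48.4 and 49.9 CPM at the cap stage and 176, 177 and 176 CPM at the bell stage. Dkk1 was at 3.51, 3.79 and 4.03 CPM at the cap stage and 14.6, 13.5 and 13.2 CPM at the bell stage. Notum changed by 2.05 ± 0.083, but 38.1% of its exon length is shared with another gene. Dkk2 was at 222, 222 and 213 CPM at the cap stage and 117, 121 and 121 CPM at the bell stage, which makes it, with Sfrp2 (-0.52 ± 0.029, called in 5 of the 6 leave-one-out fits), 1 of the 2 inhibitors higher at cap. The receptors and canonical targets moved little as a group. Of 24 tested, 5 were higher at bell and 0 at cap (4 and 0 under the wider spread), beside 12.1% and 6.80% of all genes. Their median was -0.04 and their lowest fold change -0.48. The widely used target gene Axin2 (155 ± 1.03 CPM to 113 ± 1.60 CPM) and the receptor Lgr5 (132 ± 2.80 CPM to 94.6 ± 1.57 CPM) were not called. Both were lower at bell, but by less than the fold threshold. The summed level of the list went from between 2055 and 2080 CPM to between 1853 and 1871 CPM. Tcf7, a nuclear effector of the pathway, rose from 26.5 ± 1.32 CPM to 87.4 ± 0.937 CPM (SD, n = 3).

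Retinoic acid is made by Aldh1a enzymes and broken down by Cyp26 enzymes. Of 16 genes of its metabolism tested, 6 were higher at bell and 1 at cap, beside 12.1% and 6.80% of all genes. Their median was 0.34, and the counts under the wider spread were 5 and 0 of 15 tested. Aldh1a3 was at 18.0, 18.9 and 19.4 CPM at the cap stage and 66.0, 66.3 and 62.2 CPM at the bell stage. Cyp26c1 was at 0.185, 0.387 and 0.359 CPM at the cap stage and 9.93, 9.66 and 11.0 CPM at the bell stage, and Cyp26a1 at 0.647, 0.474 and 0.638 CPM at the cap stage and 4.25, 4.14 and 4.47 CPM at the bell stage. Enzymes of both synthesis and breakdown were thus higher at bell, as was the reductase gene Dhrs3 (1.41 ± 0.061), while the retinol-binding protein receptor gene Stra6 changed by -0.65 ± 0.081.

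**Figure D3:**
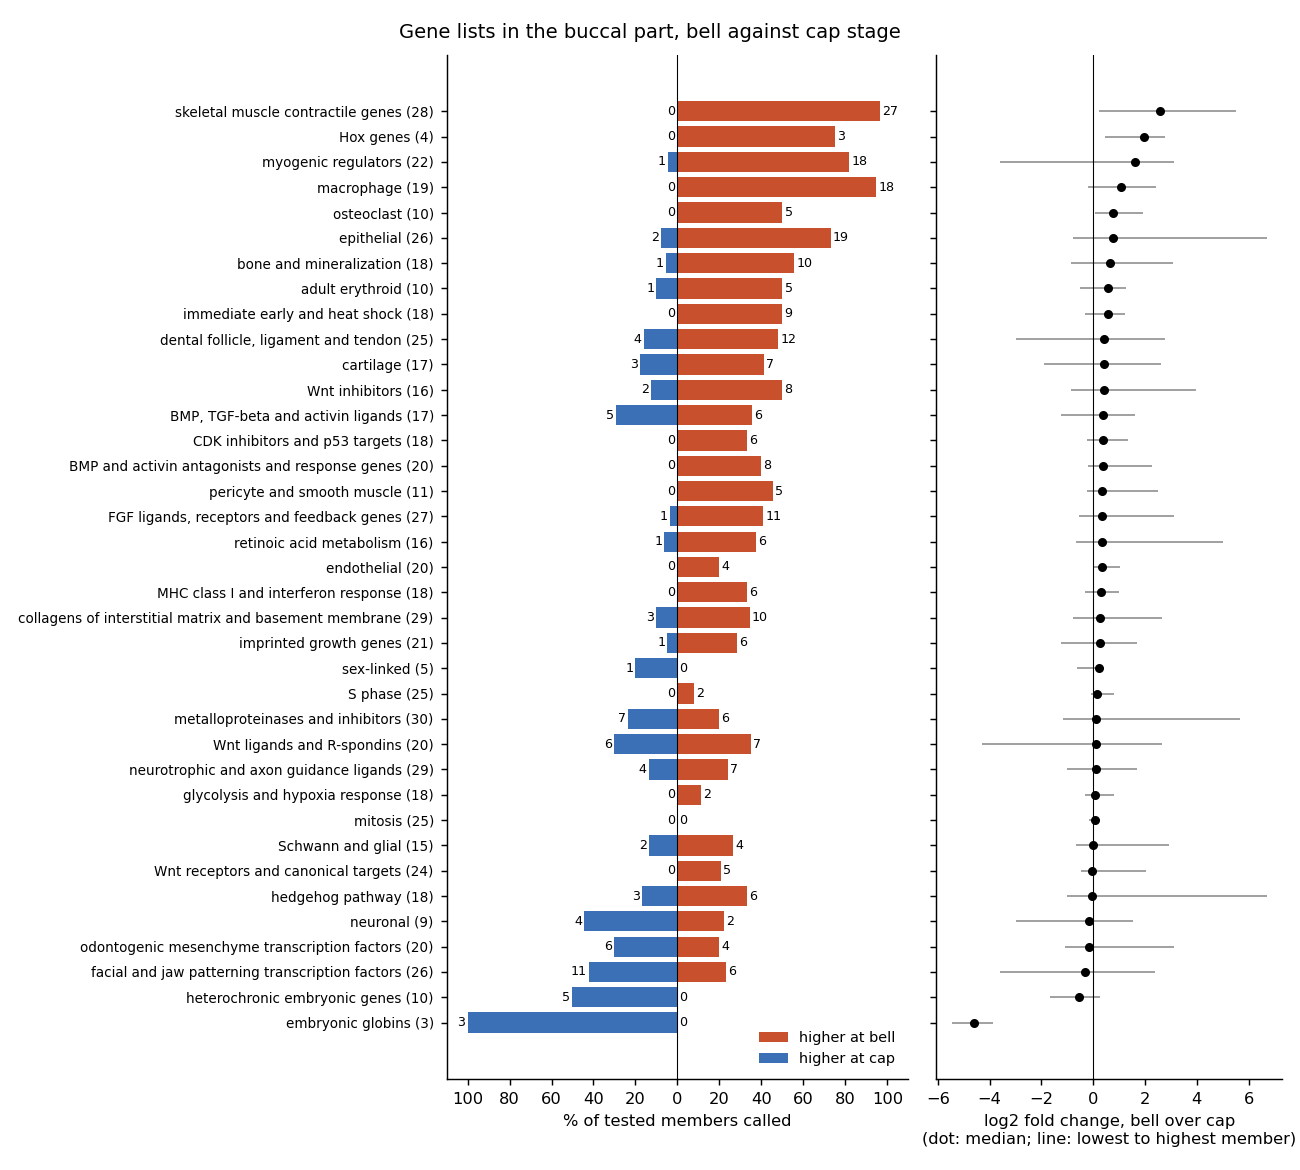
Gene lists with at least 3 members tested in the buccal part, the number tested in brackets. The left panel gives the percent of these members called higher at bell (orange, to the right) or higher at cap (blue, to the left), with their counts at the bar ends, and the right panel the list's median log2 fold change, bell over cap, as a dot with a line from the lowest to the highest member; contractile genes have the highest median, 2.59, embryonic globins the lowest, -4.61, and no mitosis gene was called.

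Transcription factors of dental mesenchyme went both ways. Of 20 tested, 4 were higher at bell and 6 at cap, beside 12.1% and 6.80% of all genes. Their median was -0.17, and the counts under the wider spread were 3 and 5. Msx2, a homeobox gene downstream of Bmp, was at 1.80, 1.51 and 1.83 CPM at the cap stage and 14.4, 15.2 and 14.7 CPM at the bell stage (log2 fold change 3.10 ± 0.11). Dlx3, a factor of tooth, bone and skin, was at 6.98, 6.20 and 6.26 CPM at the cap stage and 52.3, 57.1 and 54.2 CPM at the bell stage (log2 fold change 3.07 ± 0.063). Barx1, a homeobox gene of molar mesenchyme, rose by 0.76 ± 0.030. On the cap side Pitx1, a factor of the mandible and hindlimb, was at 269, 264 and 269.9 CPM at the cap stage and 122, 120.1 and 138 CPM at the bell stage. The LIM homeobox gene Lhx8 was at 413, 419.6 and 415 CPM at the cap stage and 222, 225 and 224 CPM at the bell stage. Eya1 (-0.83 ± 0.035), Osr2 (-0.76 ± 0.028), Prrx1 (-0.69 ± 0.029) and Twist1 (-0.58 ± 0.028) were also higher at cap. Pax9, Msx1, Lhx6 and Runx2, which are needed for molar development or bone, changed by less than the threshold, Pax9 from 420.2 ± 1.06 CPM to 399 ± 10.6 CPM, Msx1 from 495 ± 9.05 CPM to 396 ± 18.2 CPM, Lhx6 from 343 ± 3.96 CPM to 293 ± 4.73 CPM and Runx2 from 247 ± 2.58 CPM to 267 ± 4.55 CPM (SD, n = 3 each). All 4 lay far above the floor at both stages, as the label of dental mesenchyme requires.

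Factors that pattern the face and jaw were more often higher at cap, 11 against 6 of 26 tested, with a median of -0.33. Of all genes, 6.80% were higher at cap and 12.1% at bell. Under the wider spread the counts were 11 against 4. Meis2, a partner of Hox and Pbx proteins, was at 26.5, 28.1 and 24.7 CPM at the cap stage and 8.79, 7.44 and 8.32 CPM at the bell stage. Alx4, a factor of frontonasal and limb mesenchyme, was at 29.1, 30.1 and 29.1 CPM at the cap stage and 10.0, 8.93 and 10.1 CPM at the bell stage. Tbx15 was at 275, 262 and 268 CPM at the cap stage and 106, 108 and 106 CPM at the bell stage. None of these genes overlapped between stages, as held for 56.9% of all genes. Nr2f1 (-1.38 ± 0.033), Osr1 (-0.98 ± 0.029), Shox2 (-0.84 ± 0.031), Tbx3 (-0.76 ± 0.032) and Nr2f2 (-0.69 ± 0.034) were also higher at cap. The forkhead genes went the other way. Foxf1 and Foxf2, which respond to hedgehog signalling in facial mesenchyme, were at 23.2, 24.8 and 22.0 CPM at cap and 70.9, 68.4 and 67.8 CPM at bell and at 9.98, 9.56 and 9.37 CPM at cap and 51.6, 49.6 and 48.5 CPM at bell, respectively. Foxd2 changed by 2.27 ± 0.18. Of 39 Hox genes, which first-arch tissue is known to lack, 32 did not exceed the floor in any of the 6 libraries and 16 had no count at all, 4 were tested and 3 were called higher at bell, while under the wider spread 1 was tested and called. The highest of these, Hoxd8, was at 1.76, 1.38 and 1.08 CPM at the cap stage and 5.22, 5.70 and 5.85 CPM at the bell stage.

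Bone and mineralization genes rose in part. Of 18 tested, 10 were higher at bell and 1 at cap, beside 12.1% and 6.80% of all genes. Their median was 0.64, and the counts under the wider spread were 6 and 1. Ibsp, bone sialoprotein, was at 36.0, 36.0 and 37.2 CPM at the cap stage and 77.9, 75.3 and 74.1 CPM at the bell stage (log2 fold change 1.06 ± 0.039). Spp1, osteopontin, was low but separated, at 0.785, 0.904 and 0.558 CPM at the cap stage and 5.68, 4.79 and 5.62 CPM at the bell stage. The sphingomyelinase gene Smpd3, needed for mineralization, was at 32.5, 32.7 and 35.8 CPM at the cap stage and 88.4, 85.3 and 89.8 CPM at the bell stage. Omd, osteomodulin, changed by 2.46 ± 0.063 and the collagen gene Col1a1, which had the highest level of the list, by 0.73 ± 0.029. Pth1r, the parathyroid hormone receptor gene, was higher at cap (-0.85 ± 0.034), and the osteoblast factors Runx2 and Sp7 and the phosphatase gene Alpl were not called. Of 30 metalloproteinases and inhibitors tested, 6, Mmp13 among them, were higher at bell and 7, among them Adamts9 (275 ± 4.16 CPM to 124 ± 1.76 CPM), were higher at cap, and 2 and 5 under the wider spread.

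Genes of the follicle, ligament and tendon included 12 higher at bell and 4 at cap of 25 tested, with a median of 0.43, and 11 and 3 under the wider spread. Thbs4, a thrombospondin of tendon, was at 21.4, 21.2 and 20.0 CPM at the cap stage and 145, 136 and 141 CPM at the bell stage. Tnmd, tenomodulin, was at 3.19, 2.67 and 2.43 CPM at the cap stage and 14.4, 15.1 and 13.7 CPM at the bell stage, and the proteoglycan gene Ogn at 50.7, 51.4 and 47.1 CPM at the cap stage and 148, 165 and 149 CPM at the bell stage. The log2 fold changes of these 3 genes were 2.76 ± 0.041, 2.39 ± 0.10 and 1.63 ± 0.040. Their stages did not overlap, as held for 56.9% of all genes. Kera (-1.10 ± 0.046) and Tnc (-0.73 ± 0.028) joined Tnn and Pth1r on the cap side, and Postn and the tendon factor Scx were not called. Among 29 collagens tested, 10 were higher at bell and 3 at cap, beside 12.1% and 6.80% of all genes, and 8 and 1 under the wider spread. Col5a3 had the largest rise, at 8.32, 8.65 and 7.65 CPM at the cap stage and 52.2, 48.4 and 53.2 CPM at the bell stage. Col14a1 was at 112, 112 and 112 CPM at the cap stage and 279, 274 and 280.4 CPM at the bell stage. In cartilage genes the direction differed between members, with 7 higher at bell and 3 at cap of 17 tested, and 3 and 2 under the wider spread. Col2a1, the main collagen of cartilage, was at 117, 112 and 115 CPM at the cap stage and 31.2, 29.8 and 31.8 CPM at the bell stage (log2 fold change -1.89 ± 0.037), and Sox6 changed by -1.09 ± 0.062, but its partner Sox5 changed by 2.61 ± 0.094. Sox9 was not called.

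Skeletal muscle genes were higher at the bell stage almost throughout. Of 28 contractile genes tested out of 30, 27 were higher at bell and 0 at cap, with a median of 2.59, beside 12.1% of all genes called higher at bell and a median over all genes of 0.005. Under the wider spread 19 of 21 tested were called. Their summed level went from 412 to 414 CPM at cap to between 1662 and 1714 CPM at bell. In bulk tissue, more cells of a type and more RNA per cell cannot be told apart, here and for every cell type below.

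Upstream bases of 3 of these genes are shown because muscle regulators such as Myod1 and Myog are known to bind the E-box CAGCTG, which is printed in capitals. Each stretch is the 250 bases before the annotated start in the RefSeq promoter table (GRCm38.p6), read 5′ to 3′ on the strand of the gene, and each matched GRCm39 exactly once, Mylpf at chr7:126810530-126810779 on the plus strand, Acta1 at chr8:124621515-124621764 on the minus strand and Tnnt2 at chr1:135763822-135764071 on the plus strand.
Mylpf: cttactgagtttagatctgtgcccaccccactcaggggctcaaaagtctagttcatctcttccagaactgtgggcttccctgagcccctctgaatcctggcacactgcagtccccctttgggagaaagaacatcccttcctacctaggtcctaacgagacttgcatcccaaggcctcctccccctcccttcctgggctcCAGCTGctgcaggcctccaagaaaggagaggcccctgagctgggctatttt
Acta1: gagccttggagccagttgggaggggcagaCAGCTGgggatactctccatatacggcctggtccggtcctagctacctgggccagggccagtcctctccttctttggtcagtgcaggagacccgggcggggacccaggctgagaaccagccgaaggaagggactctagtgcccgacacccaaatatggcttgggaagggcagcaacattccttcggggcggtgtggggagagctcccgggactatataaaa
Tnnt2: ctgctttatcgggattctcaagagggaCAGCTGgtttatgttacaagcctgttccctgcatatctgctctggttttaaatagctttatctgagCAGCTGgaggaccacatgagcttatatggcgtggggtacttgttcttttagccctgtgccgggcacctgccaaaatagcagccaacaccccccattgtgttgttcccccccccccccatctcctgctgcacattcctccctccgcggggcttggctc
The motif begins 51 bases before the start in Mylpf, 221 bases before it in Acta1, and 223 and 157 bases before it in Tnnt2. Searched on both strands, which for this palindrome are the same, it was found in 11 of the 24 contractile genes with a promoter in the table (45.8%), in 2 of 11 myogenic regulators (18.2%) and in 3450 of all 27025 promoters (12.8%). A match describes the letters only.

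The genes behind these sequences code for sarcomere proteins. Mylpf, a myosin light chain of fast fibres, was at 8.04, 9.43 and 8.77 CPM at the cap stage and 83.9, 74.6 and 83.6 CPM at the bell stage (log2 fold change 3.20 ± 0.059). Acta1, skeletal actin, was at 12.5, 12.1 and 12.5 CPM at the cap stage and 87.1, 82.7 and 85.5 CPM at the bell stage. Tnnt2, a troponin of heart and developing skeletal muscle, was at 5.87, 5.68 and 6.86 CPM at the cap stage and 54.8, 50.1 and 51.6 CPM at the bell stage. In each gene the 3 bell libraries lay several fold above the 3 cap libraries. The embryonic myosin gene Myh3 was at 47.4, 42.3 and 48.0 CPM at the cap stage and 274, 267 and 283 CPM at the bell stage and cardiac actin Actc1, also made by fetal muscle, at 93.3, 87.2 and 86.3 CPM at the cap stage and 382, 396 and 393 CPM at the bell stage. The smallest rise among those called was that of Mybpc1, at 10.8, 13.3 and 12.2 CPM at the cap stage and 17.6, 18.8 and 17.6 CPM at the bell stage, which was called in 5 of the 6 leave-one-out fits, and Actn3 was not called. Ckm, creatine kinase, had 0, 0 and 1 counts at the cap stage and 28, 20 and 28 counts at the bell stage. On the CPM scale this was a ratio of 61.1 (95% interval 10.6 to 2445).

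Myogenic regulators followed with 18 higher at bell and 1 at cap of 22 tested, beside 12.1% and 6.80% of all genes, and a median of 1.63. Of 13 tested under the wider spread, 6 were higher at bell and 1 at cap. Myod1, which commits cells to muscle, was at 14.4, 13.0 and 13.2 CPM at the cap stage and 34.6, 34.1 and 33.8 CPM at the bell stage. Myog, which drives differentiation, was at 25.4, 20.2 and 25.3 CPM at the cap stage and 69.4, 67.5 and 72.7 CPM at the bell stage. Pax7, of muscle stem cells, was at 3.60, 3.83 and 4.18 CPM at the cap stage and 14.6, 16.1 and 17.9 CPM at the bell stage, so that Pax3 and Pax7, which are close relatives, moved in opposite directions. Msc, a factor of jaw muscle precursors with 21.2% of its exon length shared, changed by 2.68 ± 0.084, the fusion gene Mymk by 2.35 ± 0.11 and the cadherin gene Cdh15 by 1.73 ± 0.061. Tbx1, which is also expressed in dental epithelium, rose by 1.07 ± 0.060.

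**Figure D4:**
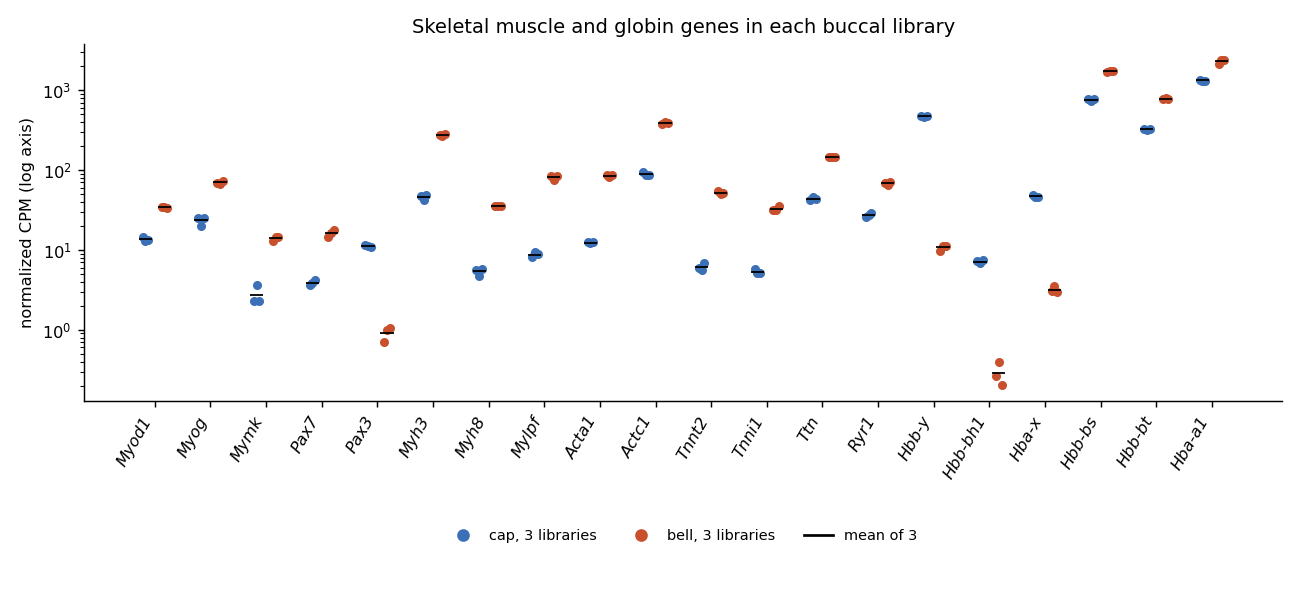
Levels of muscle and globin genes in the 6 buccal libraries (CPM, log axis), 3 points per stage with their mean as a line, cap in blue beside bell in orange. Contractile genes and adult globins lie higher at bell in all 3 libraries, and Hbb-y falls from between 462 and 481 CPM at cap to between 9.63 and 11.3 CPM at bell.

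Globin mRNA in dissected tissue comes from red cells left in its vessels, and the mouse embryo replaces embryonic by adult globins over these days. All 3 embryonic globin genes tested were higher at cap, with a median of -4.61, also under the wider spread. Hbb-y was at 473, 462 and 481 CPM at the cap stage and 9.63, 11.3 and 11.2 CPM at the bell stage, which is 44.1 times lower at bell (log2 fold change -5.46 ± 0.043, adjusted p = 4.6e-46, edgeR). Hba-x was at 48.2, 46.3 and 45.4 CPM at the cap stage and 3.04, 3.49 and 3.01 CPM at the bell stage, and Hbb-bh1 at 7.21, 6.80 and 7.41 CPM at the cap stage and 0.267, 0.399 and 0.203 CPM at the bell stage. Their summed level went from between 515 and 533 CPM to between 12.9 and 15.2 CPM.

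The adult genes rose over the same days. Hbb-bs was at 784, 732 and 773 CPM at the cap stage and 1700.0, 1754 and 1729.5 CPM at the bell stage and Hba-a1 at 1358, 1320.2 and 1313 CPM at the cap stage and 2153, 2369 and 2353 CPM at the bell stage. Their copies Hbb-bt (1.27 ± 0.028) and Hba-a2 (0.79 ± 0.032) rose as well, but near-identical copies share reads that the counting left out, so the split between them is uncertain. Of 10 adult erythroid genes tested, 5 were higher at bell and 1, Slc4a1, at cap, beside 12.1% and 6.80% of all genes. Under the wider spread these counts were 5 and 0 of 9 tested. Slc4a1 (-0.52 ± 0.091) was called in 4 of the 6 leave-one-out fits, and the erythroid factors Klf1 and Gata1 were not called.

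The bases upstream of an embryonic and an adult beta globin gene are set side by side because the 2 genes of 1 locus moved in opposite directions, and the CCAAT box known from globin promoters is in capitals. They were taken and located in the same way, Hbb-y at chr7:103502415-103502664 and Hbb-bs at chr7:103477136-103477385 of GRCm39, both on the minus strand.
Hbb-y: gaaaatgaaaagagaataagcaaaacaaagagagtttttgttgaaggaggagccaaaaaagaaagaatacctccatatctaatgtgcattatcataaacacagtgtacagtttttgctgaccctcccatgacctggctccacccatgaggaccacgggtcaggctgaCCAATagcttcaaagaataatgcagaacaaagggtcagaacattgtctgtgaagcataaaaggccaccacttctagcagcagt
Hbb-bs: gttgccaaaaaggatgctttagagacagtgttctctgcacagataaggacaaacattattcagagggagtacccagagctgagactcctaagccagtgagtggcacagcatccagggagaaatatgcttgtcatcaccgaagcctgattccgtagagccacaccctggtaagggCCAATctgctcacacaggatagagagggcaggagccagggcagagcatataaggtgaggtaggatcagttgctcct
The box begins 83 bases before the start in Hbb-y and 76 bases before it in Hbb-bs, so both promoters hold it. Searched on both strands, CCAAT stood in 6 of 9 adult erythroid promoters (66.7%), in 1 of 2 embryonic globin promoters in the table, and in 9314 of all 27025 (34.5%).

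Although the epithelium had been removed, epithelial genes were detected at both stages and were higher at bell. Of 26 markers tested, 19 were higher at bell and 2 at cap, beside 12.1% and 6.80% of all genes. The median of the markers was 0.76, and the counts under the wider spread were 5 and 0. Their summed level was between 561 and 582 CPM at cap and between 953 and 990 CPM at bell. Krt5 was at 161, 151 and 154 CPM at the cap stage and 277, 267 and 273 CPM at the bell stage, Epcam at 12.1, 13.2 and 12.5 CPM at the cap stage and 23.1, 23.9 and 24.8 CPM at the bell stage and Cdh1 at 14.5, 15.2 and 15.1 CPM at the cap stage and 25.4, 24.9 and 26.1 CPM at the bell stage, and Krt14 was not called. The rise of Shh and Krt13 thus came with a higher level of general epithelial markers. The part of this higher level in the result of any gene, the signalling genes above included, was not tested. Krt15 (-0.51 ± 0.042) and Krt19 (-0.78 ± 0.12) were the members higher at cap, and Krt15 was called in 4 of the 6 leave-one-out fits.

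Macrophage genes rose nearly without exception. Of 19 tested, 18 were higher at bell and 0 at cap, beside 12.1% and 6.80% of all genes. Their median was 1.06, and the counts under the wider spread were 14 and 0. The pan-leukocyte gene Ptprc (8.86 ± 0.156 CPM to 7.64 ± 0.448 CPM) was not called. The receptor gene Csf1r was at 23.7, 22.2 and 26.6 CPM at the cap stage and 44.6, 49.0 and 47.6 CPM at the bell stage. The complement gene C1qa was at 8.41, 7.53 and 7.13 CPM at the cap stage and 18.2, 17.3 and 19.4 CPM at the bell stage. Lyz2, lysozyme, was at 4.71, 4.26 and 3.87 CPM at the cap stage and 23.1, 23.1 and 22.3 CPM at the bell stage. No stage overlapped the other in these genes, as held for 56.9% of all genes. Of 10 osteoclast genes, 5 were higher at bell and 0 at cap, of which 2 stayed under the wider spread, with Ctsk, cathepsin K, at 53.5, 50.4 and 51.5 CPM at the cap stage and 104, 100.3 and 101 CPM at the bell stage.

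Mast cell proteases were among the genes with the largest rise, and 10 genes of this cell type were therefore listed after their values had been seen. Cma1, chymase, was at 2.59, 2.11 and 2.15 CPM at the cap stage and 40.5, 40.3 and 42.1 CPM at the bell stage. Tpsb2, a tryptase, was at 0.647, 0.387 and 0.279 CPM at the cap stage and 31.3, 30.5 and 31.8 CPM at the bell stage, with the close copy Tpsab1 at 1.02, 0.947 and 0.837 CPM at cap and 11.4, 13.3 and 11.7 CPM at bell. Cpa3, a carboxypeptidase of mast cell granules, was at 11.3, 11.2 and 11.4 CPM at the cap stage and 50.0, 56.0 and 49.7 CPM at the bell stage and Hdc, which makes histamine, at 6.98, 6.37 and 6.18 CPM at the cap stage and 42.9, 42.9 and 41.1 CPM at the bell stage. The 5 genes had separate stages, as did 56.9% of all genes. Kit, the receptor of stem cell factor, which melanocytes and other cells also carry, changed by 1.30 ± 0.048. Fcer1a had no count in any of the 6 libraries, which allows up to 3 counts in each. Mcpt4 had 3, 2 and 0 counts at the cap stage and 82, 92 and 75 counts at the bell stage. On the CPM scale this was a ratio of 40.0 (95% interval 16.9 to 124). Ms4a2 had 2, 6 and 4 counts at cap and 17, 23 and 16 counts at bell, and Gata2 changed by 0.82 ± 0.076. Under the wider spread Cma1, Tpsb2, Tpsab1, Cpa3, Hdc and Kit stayed called. Gata2 was not called there, and Mcpt4 and Ms4a2 were not tested.

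Endothelial and glial markers were mostly not called, while most of the neuronal markers tested were. Of 20 endothelial genes, 4 were higher at bell (2 under the wider spread) and 0 at cap, beside 12.1% and 6.80% of all genes. Their median was 0.33, Sox18 rising most (1.05 ± 0.073), and their summed level went from between 776 and 781 CPM to between 992 and 1011 CPM. Of 11 pericyte and smooth muscle genes, 5 were higher at bell (3 of 10 tested under the wider spread) and 0 at cap, among them Kcnj8 (7.35, 6.59 and 6.34 CPM at cap and 39.3, 37.8 and 38.6 CPM at bell), Rgs5 (1.83 ± 0.052) and Acta2 (1.21 ± 0.031). Schwann and glial genes had 4 higher at bell and 2 at cap of 15, with a median of -0.01, and 2 and 0 under the wider spread. S100b, also made by cartilage and other cells, changed by 2.93 ± 0.16, and Sox10 was not called. Neuronal genes had 2 higher at bell and 4 at cap of 9 tested, and 0 and 1 of 8 under the wider spread, the 1 being Snap25. Snap25 was at 13.4, 13.2 and 14.5 CPM at the cap stage and 1.64, 1.74 and 1.83 CPM at the bell stage. The neurofilament genes Nefm and Nefl changed by -1.25 ± 0.057 and -0.65 ± 0.060, with 19.2% and 32.8% of their exon length shared. Among 29 neurotrophic and guidance ligands, 7 were higher at bell and 4 at cap, but 0 and 3 under the wider spread, among them Slit2 (-0.77 ± 0.028) and Sema5a (-0.68 ± 0.030).

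Cell cycle genes were close to level between the stages. Of 25 S phase genes, 2 were higher at bell, Ccne2 (0.78 ± 0.072) and Pcna (0.59 ± 0.051, with 20.8% of its exon length shared), and 0 at cap, with a median of 0.14, beside 12.1% of all genes called higher at bell, and neither was called under the wider spread. None of 25 mitosis genes was called in either direction, with a median of 0.08. Their values included Mki67 from 366 ± 7.88 CPM to 406 ± 11.4 CPM and Top2a from 290.4 ± 1.88 CPM to 344 ± 3.44 CPM, differences that passed edgeR's adjusted p but not the fold threshold. The cyclin-dependent kinase inhibitor gene Cdkn1a was at 12.3, 11.7 and 12.1 CPM at the cap stage and 30.3, 29.7 and 31.5 CPM at the bell stage, 1 of the 6 genes higher at bell among 18 inhibitors and p53 targets (3 under the wider spread).

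Of 10 heterochronic genes, whose decline marks the passage from embryonic to fetal programmes, 5 were higher at cap and 0 at bell, with a median of -0.54, beside 6.80% of all genes called higher at cap, and 4 remained called under the wider spread. Lin28b, which blocks let-7 maturation, was at 3.23, 3.66 and 3.63 CPM at the cap stage and 1.20, 1.13 and 0.981 CPM at the bell stage. Hmga2, a chromatin protein of growing mesenchyme, was at 283, 282 and 278 CPM at the cap stage and 159, 164 and 155 CPM at the bell stage. The mRNA-binding protein gene Igf2bp1 was at 108, 108 and 108 CPM at the cap stage and 57.1, 56.6 and 58.5 CPM at the bell stage, and the 3 libraries of a stage differed by only a few percent for Hmga2 and Igf2bp1.

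Imprinted growth genes had 6 higher at bell and 1 at cap of 21 tested, and 3 and 0 under the wider spread. Dlk1 was at 172, 159.6 and 164 CPM at the cap stage and 460.5, 430.0 and 460.3 CPM at the bell stage and Zim1 at 73.9, 72.9 and 74.5 CPM at the cap stage and 236, 236 and 239 CPM at the bell stage. Nnat was the member higher at cap (-1.26 ± 0.037), and Igf2 (509.5 ± 7.67 CPM to 437 ± 25.4 CPM) and H19 (5984 ± 83.7 CPM to 7323 ± 112 CPM) were not called. Immediate early and heat shock genes, which respond to handling of tissue, had 9 higher at bell (6 under the wider spread) and 0 at cap of 18, with a median of 0.55 and Fos at 780.4, 749.5 and 791 CPM at the cap stage and 1248, 1299 and 1315 CPM at the bell stage. MHC class I and interferon genes had 6 higher at bell (2 under the wider spread) and 0 at cap of 18. Among them B2m, used as reference gene in the study's RT-qPCR, was at 61.4, 63.3 and 63.5 CPM at the cap stage and 117, 122 and 117 CPM at the bell stage. Glycolysis and hypoxia genes had 2 higher at bell and 0 at cap of 18 tested, with a median of 0.08, a share near the 12.1% of all genes, and 0 in either direction under the wider spread. Of 5 sex-linked genes, Xist was higher at cap (1983 ± 53.7 CPM to 1297 ± 36.2 CPM, SD, n = 3) while 4 Y-linked genes were not called, and the call of Xist was lost under the wider spread. The summed level of the 5 genes was between 2064 and 2178 CPM in the Cap-B and between 1421 and 1498 CPM in the Bell-B libraries. In the Cap-L libraries it was between 1058 and 1356 CPM and in the Bell-L libraries between 1374 and 1418 CPM. The part of these differences in other results, by stage or by side, was not tested.

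To find out where the buccal part differed from its lingual counterpart, the stage difference was tested for interaction with side over 12 libraries with edgeR. The lingual part had 2936 genes higher at bell (14.0% of 20908 tested) and 1233 higher at cap (5.90%). By the interaction's adjusted p alone (under 0.05, with no limit on its size), the parts differed for 3180 genes with a more positive change in the buccal part (14.5% of 21931 tested) and for 3957 with a more negative one (18.0%). The interaction was not run with the wider spread, so its counts here and for the lists below rest on the spread between these libraries. Pairs of Cap-L libraries differed by 2.30 to 9.84 times the variance of counting alone, and pairs of Bell-L libraries by 1.51 to 2.80 times. Of 2177 genes called in both parts, 1971 went in the same direction, 1538 up and 433 down. The other 206 went in opposite directions, 55 up in the buccal and down in the lingual part and 151 the reverse.

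Prdm16, a chromatin regulator, had the largest positive interaction among genes with an average log2 CPM of at least 2. It rose in the buccal part from 2.10 ± 0.157 CPM to 14.5 ± 1.01 CPM and fell in the lingual part from 24.2 ± 2.48 CPM to 16.2 ± 0.555 CPM (interaction 3.36 ± 0.14, adjusted p = 4.3e-18, edgeR). Ibsp rose from 36.4 ± 0.701 CPM to 75.8 ± 1.91 CPM and fell from 121 ± 2.12 CPM to 74.5 ± 2.73 CPM on the lingual side (interaction 1.75 ± 0.059). After opposite changes Ibsp was at similar levels in the 2 parts at the bell stage, each part on its own CPM scale. Avpr1a, a vasopressin receptor gene, fell from 10.8 ± 0.996 CPM to 3.30 ± 0.607 CPM in the buccal part and rose from 0.536 ± 0.230 CPM to 5.24 ± 0.305 CPM in the lingual part (interaction -4.94 ± 0.23, adjusted p = 1.1e-16, edgeR). Adamts9 (-2.09 ± 0.067), Tgfb2 (-2.36 ± 0.064) and Dkk2 (-2.07 ± 0.054) also fell in the buccal part and rose in the lingual part, and Spry4 (1.33 ± 0.065) did the reverse. Insyn2b (2.70 ± 0.19) rose in the buccal and fell in the lingual part.

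Other genes moved in 1 part far more than in the other. Mybpc1, a myosin-binding protein gene, had an interaction of -4.61 ± 0.16, since its lingual level went from 1.01 ± 0.368 CPM to 35.4 ± 0.810 CPM. Mrgprf was at 12.9 ± 0.265 CPM to 15.8 ± 0.808 CPM in the buccal part and at 1.38 ± 0.0914 CPM to 26.1 ± 0.305 CPM in the lingual part, and the transcripts Gm49599 (-4.44 ± 0.24) and Gm5084 (-3.91 ± 0.20) also rose in the lingual part from a level far below the buccal one. Mmp13 (3.26 ± 0.31), Col9a1 (2.86 ± 0.19) and Tnxb (2.76 ± 0.20), genes of matrix or its breakdown, had a more positive change in the buccal part. Tbx18 was far higher in the buccal part at both stages, its lingual level going from 5.53 ± 0.439 CPM to 4.69 ± 0.345 CPM (interaction -2.14 ± 0.10). Snap25 and Hcn4 (interactions of -2.54 and -1.56) were higher in the buccal part at cap and similar in both parts at bell. Mean buccal and lingual levels of Snap25 were 13.7 and 2.13 CPM at cap and 1.74 and 1.58 CPM at bell. Those of Hcn4 were 14.0 and 4.49 CPM at cap and 2.10 and 1.98 CPM at bell. For B2m the interaction did not pass the test (-0.09 ± 0.055, adjusted p = 0.22, edgeR).

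Lists differed between the parts to unequal degrees. Of 19 bone genes, 12 had a more positive change in the buccal part and 4 a more negative one, beside 14.5% and 18.0% of all genes, and the median stage change was 0.64 in the buccal and -0.52 in the lingual part. The summed level of the bone list, in which genes of high level such as Col1a1 weigh most, was nonetheless higher at bell in both parts, going from between 9636 and 9994 CPM to between 13778 and 14098 CPM in the buccal part and from between 7196 and 7532 CPM to between 12973 and 13627 CPM in the lingual part. Among 25 S phase genes 23 had a more positive change in the buccal part and 0 a more negative one, with medians of 0.14 and -0.17. Of 25 mitosis genes 17 were more positive and 1 more negative, with medians of 0.08 and -0.15. Single differences were small, as for Mcm6, from 196 ± 2.92 CPM to 202 ± 4.67 CPM in the buccal and 229 ± 4.12 CPM to 188 ± 1.20 CPM in the lingual part (interaction 0.33 ± 0.051). Macrophage genes had 0 more positive and 15 more negative of 19, with a lingual median of 2.07, and the summed level at bell was between 328 and 332 CPM in the buccal and between 615 and 626 CPM in the lingual part. Contractile genes split into 8 more positive and 7 more negative of 29, with medians of 2.59 in the buccal and 2.10 in the lingual part. Of 27 tested in both parts, 25 were higher at bell and 0 at cap in the lingual part. The list's summed level at cap was between 412 and 414 CPM in the buccal and between 72.0 and 72.8 CPM in the lingual part. At bell it was between 1662 and 1714 CPM in the buccal and between 257 and 266 CPM in the lingual part. Myogenic regulators had 5 more positive and 11 more negative of 22, beside 14.5% and 18.0% of all genes. Their summed level nonetheless went from between 292 and 301 CPM to between 527 and 540 CPM in the buccal part. In the lingual part it was between 291 and 315 CPM at cap and between 302 and 313 CPM at bell. Members of high level weigh most in this sum. The median stage change of the members was 2.30 in the lingual and 1.63 in the buccal part. Of 18 members tested in both parts, 13 were higher at bell and 3 at cap in the lingual part.

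**Figure D5:**
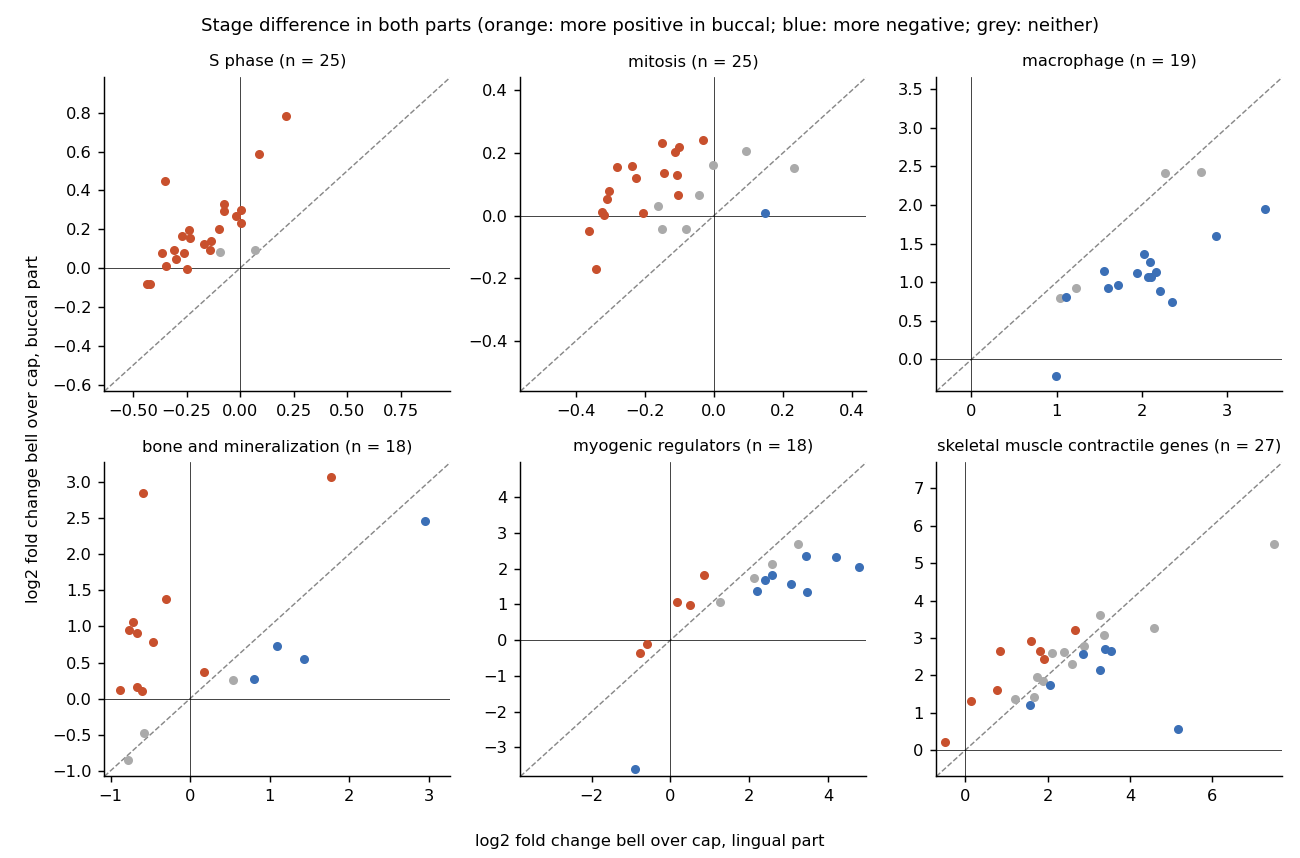
Log2 fold change, bell over cap, in the lingual part (x axis) and in the buccal part (y axis) for the members of 6 lists that were tested in both parts; orange points have a more positive change in the buccal part by the interaction, blue points a more negative one, grey points neither, and the dashed diagonal marks equal change. S phase and mitosis genes cluster just above the diagonal near 0, most macrophage genes lie below it, and bone genes scatter above it with Ibsp and Spp1 positive in the buccal and negative in the lingual part.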

How the data were processed

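RNA of mouse dental mesenchyme was sequenced from 24 libraries in 8 groups of 3, of which the 3 Cap-B and the 3 Bell-B libraries, grouped by their labels, were compared here, with the 3 Cap-L and 3 Bell-L libraries for the interaction and the undivided libraries for the spread. The authors deposited raw counts of read pairs on 56748 genes in 1 table, made with featureCounts over exons of a GRCm39 Ensembl annotation without regard to strand, per the file headers. That table omits pairs with several mapped places or several overlapping genes, so near-identical copies and overlapping genes are undercounted. The submitters' processing notes list FastQC 0.12.1, Trimmomatic 0.39, Bowtie 1.2.3, Subread 2.0.3 and DESeq2 1.40.2 without their roles. The labels and the methods name different library kits, and the kit is therefore not stated here. Symbols were matched by identifier for 56017 genes.

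In R 4.3.3, edgeR 4.0.16 was run with TMM, filterByExpr, the quasi-likelihood test and Benjamini-Hochberg adjustment over all genes tested, on the 6 libraries for the stages and on 12 for the interaction of stage and side. Calls needed an adjusted p under 0.05 and, except for the interaction, a log2 fold change of more than 0.5 in either direction. Log2 CPM and fold changes were computed from the counts, and CPM is per 1000000 counts on the tested genes. Buccal CPM come from the fit on 6 libraries and lingual CPM from the fit on 12. Standard errors are the absolute fold change over the root of the F statistic. Ratios for genes with libraries of 3 counts or fewer carry exact binomial intervals (95%), which cover counting error only. Exon overlap was computed from the exon coordinates of the deposited table.

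The members of the 37 gene lists (760 of 761 entries matched, Ahsp being unmatched) and the lists themselves were chosen with earlier results of these data known, and the mast cell genes after their values here had been seen. Named by rule were the 10 genes with the largest absolute fold change in each direction among those called, at a mean log2 CPM of 2 or more and without overlap between stages. From each list came the 3 called members with the largest change in each direction and the member with the highest mean, other members being given by value. The 5 largest interactions in each direction and B2m were added. Some genes that meet these rules are not reported here. The same-numbered libraries of the 2 stages did not deviate together, with correlations of their deviations of 0.0074, 0.015 and 0.016, so no pairing was used. The fits were tested on simulated counts. Alternatives were RLE size factors, DESeq2 1.42.0, other filters on low counts, a joint fit over all 24 libraries, a block for the replicate number, the 100 most abundant genes left out, other fold thresholds, each library left out in turn and, added after seeing the data, the gene-wise dispersion of the undivided libraries with edgeR's likelihood ratio test.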

Additional observations from a re-analysis of the deposited data

Results flagged for a closer look

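The stage difference of the following genes differed between the buccal and the lingual part by the test of the interaction in edgeR (adjusted p under 0.05 over 21931 genes, 12 libraries), and each value is the buccal minus the lingual log2 fold change. A positive difference was found for Prdm16 (3.36), Mmp13 (3.26), Col9a1 (2.86), Tnxb (2.76), Insyn2b (2.70), Tceal7 (2.02) and Otof (0.94). Col9a1, a cartilage collagen gene, was at 1.80, 2.20 and 1.99 CPM at cap and 3.54, 2.90 and 3.21 CPM at bell in the buccal part and at 9.03, 9.04 and 8.48 CPM at cap and 2.22, 1.90 and 1.80 CPM at bell in the lingual part, so that the order of the parts turned between the stages. Tnxb, a tenascin of connective tissue, was at 0.878, 0.517 and 0.757 CPM at cap and 6.92, 7.66 and 7.24 CPM at bell in the buccal part and at 6.35, 5.66 and 7.06 CPM at cap and 9.76, 9.27 and 9.30 CPM at bell in the lingual part.

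A negative difference was found for Avpr1a (-4.94), Mybpc1 (-4.61), Gm49599 (-4.44), Mrgprf (-3.95), Gm5084 (-3.91), Epha6 (-3.08), Pax3 (-2.73), Snap25 (-2.54), Gm28175 (-2.36), Tnn (-2.20), Tbx18 (-2.14), Ccl21a (-1.84), Hcn4 (-1.56), Krt13 (-1.02) and Hbb-y (-0.45). Pax3 was at similar levels in both parts at cap and fell further in the buccal part, its lingual libraries being at 10.4, 8.51 and 10.0 CPM at cap and 4.88, 5.33 and 5.33 CPM at bell. Krt13 rose in both parts, to 34.0, 33.1 and 34.4 CPM in the buccal and, per library, 0.616, 0.725 and 0.321 CPM at cap and 73.9, 67.1 and 68.3 CPM at bell in the lingual part. Epha6 was near the floor in the lingual part at both stages, at 0.145, 0.251 and 0.143 CPM at cap and 0.0390, 0.186 and 0.102 CPM at bell. The groups hold 3 libraries each, so single libraries were not screened for outliers.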

How the results depend on the processing

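Genes higher at bell and at cap numbered 2523 and 1424, with 2514 and 1435 under RLE size factors, 2253 and 1131 with DESeq2, 2897 and 1541 without a filter on low counts, 2252 and 959 with all 24 libraries in 1 fit, and 2470 to 2567 and 1354 to 1421 when 1 library was left out. Under a replicate block the counts were 2522 and 1418 for stage and 3058 and 3821 for the interaction, although the numbers did not pair the libraries. Counts moved by over 1.5 times with the dispersion of the undivided libraries (947 and 382), without a fold threshold (5519 and 5334) and above an absolute log2 fold change of 1 (1188 and 424). The interaction counts, 3180 positive and 3957 negative, ranged over 2742 to 3557 and 3357 to 3929 when a library was left out, and were 2696 and 3013 with DESeq2.

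Of 182 genes named by rule, 123 kept their call and 45 lost it with the dispersion of the undivided libraries, the others, Epha6 and Tceal7 among them, not being tested there. Calls were also lost by 8 with all 24 libraries in 1 fit, 2 with DESeq2 (Lefty2 and Ihh) and 1 without a filter, and none turned its direction under the alternatives run. The fitted spread of the buccal libraries is below that of the lingual and the undivided ones, and whether 3 libraries of a stage came from separate embryos is not stated in the sources used here. The main limit is therefore the spread: p-values refer to these libraries. Genes of few counts, such as Shh at cap, are limited by depth.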

Other observations

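Several genes with a larger fold change than those named above lay under the average log2 CPM of 2 and were chosen here after their values were seen. Gm10503 had no count in any Cap-B library and reached 6.45, 6.83 and 6.73 CPM in the Bell-B libraries, and Cckar, a cholecystokinin receptor gene, went from 0.0462, 0.0431 and 0.0399 CPM to 6.95, 7.52 and 6.33 CPM. Nmur2, a neuromedin U receptor gene, went from 3.00, 2.97 and 2.83 CPM to 0.0669, 0 and 0.0677 CPM. Dlx4os, a transcript antisense to Dlx4, whose reads cannot be told apart from Dlx4 without strand where they overlap, went from 0.139, 0 and 0.239 CPM to 7.29, 6.86 and 6.80 CPM.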
